A study of Mus musculus with 2 samples.

Results

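The probes described here read the olfactory and vomeronasal receptor genes of the mouse, on a pair of microarrays of haematopoietic stem and progenitor cells. They were taken by name: every non-control probe whose gene name was Olfr, Vmn1r or Vmn2r followed by a digit. This gave 1488 of the 55680 probes kept, for 1354 gene names. Of these, 1196 probes read 1100 Olfr genes, 174 read 162 Vmn1r genes and 118 read 92 Vmn2r genes. Against a RefSeq gene table of GRCm38.p6, used for names only, 1474 of the 1488 probes matched a gene, 1460 of them under the same symbol, and 1455 were annotated there as protein coding.

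The cells were Lineage-Sca-1+c-Kit+ (LSK) bone marrow cells of strain C57BL/6, sorted from secondary recipients of a transplanted myelodysplastic syndrome with the genotype Tet2KD/KD Ezh2Δ/Δ. They were collected 10 weeks after transplantation. One group of recipients had received decitabine (DAC), an inhibitor of DNA methyltransferases, and the other phosphate-buffered saline (PBS), in both cases 7 weeks before the sort. By the labels, the transplanted cells of both groups carried the same Tet2 and Ezh2 alleles. Each group was 1 array, and no unaltered cells, sensory tissue or replicate were among the samples, so every difference between DAC and PBS compares 2 arrays and has no replicate check. The sources used here do not say how many mice stood behind an array or whether host cells were kept out of the sort.

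Olfactory receptors are G protein-coupled receptors of the sensory neurons of the nose, and together they form the largest gene family of the mouse. Each mature neuron transcribes a single receptor gene from a single allele, while the remaining receptor genes, which lie in long clusters, are packed into heterochromatin. Vmn1r and Vmn2r genes encode the pheromone receptors of the vomeronasal organ. Outside the nose a few olfactory receptors have known roles, for example Olfr78 in the oxygen-sensing glomus cells of the carotid body and Olfr16 in sperm, but most receptor genes have no known activity in blood cells.

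The probes are designed oligonucleotides of 60 bases, and some sequences are given first, chosen after the values had been seen. The letters gtctgtg, held by some of them, were also picked from these values and support nothing further. The first 8 below were well above background (the scanner software's call for a spot clearly brighter than its background) on both arrays, and hold the letters gtctgtg, shown in capitals.
Olfr187: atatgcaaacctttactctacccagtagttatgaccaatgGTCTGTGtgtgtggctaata
Olfr780: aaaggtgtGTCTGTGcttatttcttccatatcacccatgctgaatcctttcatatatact
Olfr1168: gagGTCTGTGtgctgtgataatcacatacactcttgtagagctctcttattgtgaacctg
Olfr1402: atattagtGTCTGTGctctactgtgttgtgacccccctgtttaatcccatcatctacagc
Olfr469: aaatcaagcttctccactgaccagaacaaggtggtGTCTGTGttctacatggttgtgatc
Vmn1r26: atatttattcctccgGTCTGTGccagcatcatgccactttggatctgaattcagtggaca
Olfr470: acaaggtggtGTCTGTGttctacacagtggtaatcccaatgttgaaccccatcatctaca
Olfr661: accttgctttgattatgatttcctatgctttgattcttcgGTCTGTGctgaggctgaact
The same letters stood in the probes of Olfr689, Olfr507 and Olfr338, which were well above background on neither array.
Olfr689: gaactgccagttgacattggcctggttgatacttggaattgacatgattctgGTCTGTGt
Olfr507: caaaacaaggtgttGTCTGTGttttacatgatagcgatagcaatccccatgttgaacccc
Olfr338: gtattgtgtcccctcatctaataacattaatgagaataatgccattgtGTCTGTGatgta
The last set lacks these letters. It is shown because Olfr1410 gave the brightest receptor signal, and because Olfr538 and Olfr97 gave the largest differences in either direction among receptor probes well above background on both arrays.
Olfr1410: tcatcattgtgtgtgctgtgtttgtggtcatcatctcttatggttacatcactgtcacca
Olfr538: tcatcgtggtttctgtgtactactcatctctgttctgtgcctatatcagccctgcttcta
Olfr97: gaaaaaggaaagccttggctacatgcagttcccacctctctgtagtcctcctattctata
In mm9 the probes of Olfr187 and Olfr780 lay at chr16:59036130-59036189 (minus strand) and chr10:128759488-128759547 (plus strand). Those of Olfr1168 and Olfr1402 lay at chr2:88025484-88025543 (plus) and chr3:97214221-97214280 (minus). The probe of Olfr1410 lay at chr1:94505050-94505109 (plus), that of Olfr538 at chr7:147760787-147760846 (plus) and that of Olfr97 at chr17:37368563-37368622 (minus). The sources used here do not place the probes in coding or untranslated sequence.

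Most receptor probes were not well above background in these cells. On the DAC array 170 of 1488 were well above background (11.4%, exact 95% binomial interval 9.85 to 13.2), against 56.8% of all 55680 probes. The PBS array called 133 (8.94%, interval 7.54 to 10.5), against 48.5% of all probes. Among the 54192 probes of other genes the shares were 58.0% on DAC and 49.6% on PBS, 5.08 and 5.55 times those of the receptors. The intervals treat each probe as an independent trial and cover counting error only, since probes for related genes share sequence.

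On both arrays 90 receptor probes were well above background (6.05%), against 45.6% of all probes. A further 80 (5.38%) were called on the DAC array only, against 11.1% of all probes, and 43 (2.89%) on the PBS array only, against 2.88%. With this call the PBS-only share of the receptors thus lay at the share of all probes, while their DAC-only share was below it. The remaining 1275 receptor probes (85.7%) were called on neither array, against 39.1% of the probes of other genes. The count on DAC only was 1.86 times that on PBS only for the receptors and 3.92 times for other genes. DAC was the brighter array, with a 75th percentile signal of 813 against 618 over the 25404 probes called on both, and the part of this in the counts on 1 array only was not tested.

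The signal distribution of the receptors was narrow and low. The processed signal is the scanner software's background-subtracted spot intensity, with a surrogate value near the background for spots not above it. The surrogate puts a floor under the low end. On the DAC array the processed signal had a median of 5.61 over receptor probes and of 41.9 over the other probes. The PBS medians were 4.94 and 22.3. Without the surrogate, the receptor medians of the background-subtracted signal were 3.80 on DAC and 2.73 on PBS. The receptor median stood at percentile 18.8 of the other probes on DAC and at 22.8 on PBS. The 75th percentile of the receptors was 12.3 on DAC and 9.80 on PBS, the 95th was 53.3 and 38.9, and the dimmest signal called well above background was 22.5 and 20.3. Among probes called on DAC, the receptors had a median signal of 46.5 and the others of 165, and on PBS the values were 43.2 and 151.

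Below that call, receptor probes were still not all alike. The scanner software's weaker call, positive and significant, was given to 44.9% of receptor probes on DAC and 41.5% on PBS, against 79.8% and 73.0% of the other probes. The negative control is 1 probe printed at 308 spots, of which 3.57% on DAC and 2.92% on PBS had the weaker call and 0.974% on either array the stronger one. Its median processed signal was 5.09 on DAC and 4.56 on PBS, close to the receptor medians. Background-subtracted signals fell below 0 in 32.7% of receptor probes on DAC and 35.4% on PBS, and in 12% and 16.3% of the others. Across the 1275 receptor probes called on neither array, the background-subtracted signals of the arrays correlated with r = 0.609 (Spearman 0.600). For the 21201 other probes called on neither array, r was 0.553. The 308 negative control spots, all of 1 sequence, gave r = 0.00225 (Spearman 0.059). The points of a set share the slide, each receptor point has the same probe sequence on both arrays, and the parts of probe sequence and of low RNA levels in these correlations were not tested.

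Repeated spots showed the spread of such signals. Of the receptor probes, 1472 were printed once and 16 were printed 10 times. None of the 16 reached the call on 50% of its spots, as required here, against 11.4% of all receptor probes on DAC and 8.94% on PBS. These 16 are too few to be set apart from those shares. In all, 6 of 155 spots were called on DAC, from 3 probes, and 4 of 153 on PBS, from 2 probes. Of the negative control spots 0.974% were called on each array. Olfr868 had 3 of 10 spots called on DAC, where they ranged from 15.1 to 35.7 with a median of 20.9, and 3 of 9 on PBS, where they ranged from 13.4 to 28.4 with a median of 20.2. Olfr53 had 2 of 8 spots called on DAC (12.3 to 36.2, median 22.6) and 1 of 10 on PBS (9.91 to 27.8, median 17.1). For both receptors the spots of the arrays overlapped. At the other end, all 10 spots of Olfr154 fell below 0 after background subtraction on each array. Vmn1r58 had 1 of 10 spots called on DAC and none on PBS.

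The low share held on every chromosome with enough receptor probes to compare. On 13 mm9 chromosomes with at least 20 receptor probes, 1428 in all, the receptor share was below that of the other probes of the same chromosome in 13 of 13 cases on each array. The receptor shares ran from 4.79% to 18.4% on DAC and from 4.55% to 21.4% on PBS, while the shares of the other probes ran from 54.6% to 65.0% and from 45.8% to 55.4%, without overlap. Median signals were likewise lower for the receptors on 13 of 13 chromosomes on both arrays.

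Chromosome 7, which holds 371 receptor probes of 328 genes, had 40 called on DAC (10.8%, interval 7.82 to 14.4) and 32 on PBS (8.63%, 5.97 to 12). Chromosome 2, with 308 probes, had 31 (10.1%) and 26 (8.44%). The lowest share on DAC was that of chromosome 9, with 7 of 146 probes (4.79%, 1.95 to 9.63), where PBS had 10 (6.85%). Chromosome 11 had the highest on DAC, 16 of 87 (18.4%, 10.9 to 28.1), and 7 on PBS (8.05%, 3.30 to 15.9). On chromosome 4 the order was the other way, with 5 of 28 on DAC (17.9%, 6.06 to 36.9) and 6 on PBS (21.4%, 8.30 to 41.0). On DAC the intervals of chromosomes 9 and 11 did not overlap, while all other pairs among these 5 chromosomes overlapped on both arrays. The receptor share was higher on DAC than on PBS on 10 of the 13 chromosomes, and the share of the other probes was higher on DAC on every one of them. Chromosomes whose receptor probes had a higher median GC content tended to have a higher share (Spearman 0.69 on DAC and 0.47 on PBS over 13 chromosomes, a description). The smaller groups of probes, 49 in all, had 10 called on DAC and 8 on PBS. Chromosome 3 had 4 of 10 on each array (40%, interval 12.2 to 73.8), chromosome 15 had 4 of 12 on DAC and 2 on PBS, and chromosome 8 had 2 of 6 and 1. On chromosomes 5 and X 0 of 10 and 0 of 8 were called on either array, shares whose upper limits are 30.8% and 36.9%. Another 11 probes had no mm9 position, with 3 called on DAC and 2 on PBS.

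Receptor genes lie in clusters, and the few called probes were spread over them. With a gap of over 1000000 bases as the border, the probes fell into 67 clusters, of which 23 held at least 20 probes and 1262 in all. Among these 23 the share called ran from 2.86% to 32.0% on DAC and from 0% to 30.0% on PBS. The largest, on chromosome 2 from Olfr987 to Olfr1506, had 27 of 237 probes called on DAC (11.4%) and 20 on PBS (8.44%), 12 of them on both. The cluster on chromosome 17 from Vmn2r90 to Vmn1r237 had 1 of 35 on DAC and 0 of 35 on PBS, and that on chromosome 11 from Olfr20 to Olfr412 had 2 of 35 and 0 of 35. The highest DAC share was found in another cluster of chromosome 11, from Olfr30 to Olfr225, with 8 of 25 (32.0%) against 4 on PBS (16.0%). The highest PBS share belonged to the end of chromosome 7, from Olfr522 to Olfr541, with 6 of 20 (30.0%) against 5 on DAC (25%). Median probe GC was 45% in both of these clusters and 36.7% in the chromosome 17 cluster.

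The intervals of the receptor families overlapped on both arrays. Among Olfr probes 12.1% were called on DAC (interval 10.3 to 14.1) and 9.53% on PBS (7.93 to 11.3). Vmn1r probes had 9.77% (5.80 to 15.2) and 6.90% (3.61 to 11.7), and Vmn2r probes 6.78% (2.97 to 12.9) and 5.93% (2.42 to 11.8). The 30 probes whose names mark pseudogenes had 6 called on DAC (20%, 7.71 to 38.6) and 4 on PBS (13.3%, 3.76 to 30.7). Other families with little known activity outside their own tissue were also read. Taste receptors, the bitter and sweet sensors of the tongue, had 11 of 40 probes called on DAC (27.5%, 14.6 to 43.9) and 5 on PBS (12.5%, 4.19 to 26.8), and trace amine receptors, another class of chemosensory receptors, 4 of 15 (26.7%, 7.79 to 55.1) and 2 (13.3%, 1.66 to 40.5). Beta-defensins, antimicrobial peptides of epithelia, had 8 of 51 (15.7%, 7.02 to 28.6) and 9 (17.6%, 8.40 to 30.9). Keratin-associated proteins, which build the hair shaft, had 28 of 66 (42.4%, 30.3 to 55.2) and 32 (48.5%, 36.0 to 61.1). The intervals of the keratin-associated proteins on both arrays and of the taste receptors on DAC lay above those of all olfactory and vomeronasal receptor probes, and the others overlapped them.

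The share of receptor probes called rose with their GC content on both arrays. Receptor probes averaged 39.8% GC (SD 4.81 over probes) and other probes 42.8% (SD 7.28). Below 35% GC, 0 of 17 receptor probes were called on either array, with an upper limit of 19.5%. From 35% to 40% GC, 38 of 730 were called on DAC (5.21%) and 30 on PBS (4.11%). From 40% to 45% GC the shares were 12.9% and 9.14% of 394 probes, and from 45% to 50% GC 19.4% and 16.3% of 294. At 50% GC or more, 24 of 53 receptor probes were called on DAC (45.3%, 31.6 to 59.6) and 19 on PBS (35.8%, 23.1 to 50.2). The other probes rose over the same classes from 44.1% to 77.4% on DAC and from 38.3% to 69.5% on PBS, and were above the receptors in every class. Weighted to the GC content of the receptors, the others had 53.9% called on DAC and 45.7% on PBS, so GC as grouped here moved the comparison by a few percentage points.

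The letters gtctgtg, read in the probe as printed, occurred in 12 receptor probes (0.806%) and in 0.699% of the other probes. They were picked after the values had been seen, so the counts describe these probes and support nothing further. Of the 12, 9 were called on both arrays (75%), against 10.9% on DAC and 8.40% on PBS of the receptor probes without them. They were the 8 printed above and that of Olfr978. On the opposite strand (cacagac) the motif was held by 12 receptor probes, of which 2 were called on both arrays, those of Olfr796 and Olfr821. Among other genes, probes with gtctgtg had 70.4% called on DAC and 61.7% on PBS, against 57.9% and 49.5% without it. Another stretch looked at, tgtgtg, was held by 22 receptor probes, of which 10 were called on DAC and 6 on PBS. Probes of other genes with tgtgtg had 70.7% and 61.4% called.

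Receptor genes resemble each other, and 335 of the probes (22.5%) shared a run of at least 20 bases with a probe of another receptor. Of these 6.57% were called on DAC and 6.27% on PBS, against 12.8% and 9.71% of the 1153 probes without such a run. The share was lower among probes with a close copy on both arrays, a difference that was not tested. The pair Olfr469 and Olfr470, printed above, was the only pair with a shared run in which both probes were called on both arrays, and their readings cannot be told apart as 2 receptors.

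Where 1 probe of a receptor was called, a second probe of the same receptor was seldom called as well. Of the receptors, 131 had more than 1 probe, 128 of them exactly 2 and 3 of them 3. At least 1 probe was called for 28 of the 131 on DAC and 18 on PBS, and more than 1 for a single receptor on each array. On DAC this was Olfr282, with signals of 73.2 and 42.8, and on PBS it was Vmn2r3, with 81.6 and 45.2. On the respective other array only the first probe of each was called, at 62.3 for Olfr282 on PBS and 153 for Vmn2r3 on DAC. Both probes were called for 3.57% (DAC) and 5.56% (PBS) of the receptors with exactly 2 probes and any called. For 5340 other genes with 2 probes the shares were 67.4% and 57.8%. Such shares rise with the share of single probes called, so this is not a like comparison. Single probes were called in 11.4% (DAC) and 8.94% (PBS) of receptor probes, against 58.0% and 49.6% of the others.

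Few receptors were bright. All signals from here on are processed signals of the array, DAC first, while log2 differences (DAC minus PBS) are taken after scaling each array by its 75th percentile over the probes called on both. A probe's signal also depends on how well its own sequence hybridises, so the order is one of readings and not of transcript levels. Olfr1410 (NM_146491) was the brightest, with 2622 on DAC and 1364 on PBS, a log2 difference of 0.55. Olfr187 (NM_146322) followed with 1900 and 912, and a difference of 0.66. Olfr544 (NM_020289), a receptor known outside the nose in liver and fat, read 476 and 319, with a difference of 0.18. Olfr780 read 494 and 286 (0.39), and Olfr1443 348 and 375 (−0.50). These readings lay far above the receptor median on both arrays.

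Most of the 12 brightest were within 2-fold between the arrays. Olfr1168 read 335 and 178 (0.51), Olfr1402 230.2 and 217 (−0.31), Olfr821 199 and 239 (−0.66), Olfr1347 230.5 and 136 (0.37), Olfr209 194 and 111 (0.41) and Vmn1r216 136 and 143 (−0.47). The exception was Olfr97, with 61.3 on DAC and 378 on PBS. Among these 12, Olfr544 was the only one whose direction turned under other scalings, with differences between −0.024 and 0.12 across 7 other treatments of background and scaling.

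The comparison of DAC with PBS asked whether receptor genes read differently after treatment with a DNA methyltransferase inhibitor. In such bulk samples fewer cells of a type and less RNA per cell cannot be told apart. Of the 90 receptor probes called on both arrays, 6 (6.67%) exceeded 2-fold towards DAC, against 11.5% of all such probes, and 5 (5.56%) exceeded it towards PBS, against 7.13%. The other 79 lay within 2-fold. The split of 6 to 5 became 4 to 5 with scaling over all probes, median centring, loess or the series matrix values, 2 to 6 with quantile normalization, and 1 to 2 with normexp correction or no background subtraction. The median difference of the 90 was 0.18 (SD 0.75 over probes, middle 50% from −0.23 to 0.41), with 57 above 0 and 33 below. Of the 25314 other probes called on both arrays the median was 0.04, with 13240 above 0 and 12074 below. Among 14855 of these with a signal in the range of the receptors, the median was 0.17, with 8827 above 0 and 6028 below. At 2-fold, 16.5% of them were higher and 9.22% lower. The receptor median turned negative under 5 of 7 other treatments of background and scaling, which moved the median of all probes by −0.04 to −0.20. An error of 0.24 in a log2 difference, the SD expected from repeated dim spots, covers printing and scanning but not mice, sorting or labelling.

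Higher on DAC were Olfr538, with 314 against 36.7 and a log2 difference of 2.70, and Olfr123, with 180 against 47.0 (1.54). Vmn1r70, a pheromone receptor gene, read 117 against 36.0 (1.31), and Olfr1372-ps1, named as a pseudogene, 94.8 against 31.3 (1.20). Olfr720 (68.9 against 23.9) and Olfr549 (69.4 against 24.7) completed the 6, with differences of 1.13 and 1.09. Olfr1198 (0.99) and Vmn2r88 (0.96) stood just inside 2-fold, and a second Vmn2r88 probe was called on neither array (6.01 and 17.2). The PBS signals of these 6 lay between 23.9 and 47.0, while the dimmest called there was 20.3. Olfr538 stayed past 2-fold in 7 of 7 other treatments of background and scaling (1.54 to 2.54), Olfr123 in 5, Vmn1r70 in 4, Olfr1372-ps1 in 3 and Olfr720 in 1, whereas Olfr549 was past it in none. All of them kept their direction.

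Lower on DAC were Olfr97, with 61.3 against 378 (−3.02), Vmn1r151 with 34.4 against 109 (−2.06), Olfr527 with 24.2 against 66.2 (−1.85), Olfr93 with 30.0 against 73.2 (−1.68) and Olfr1505 with 33.1 against 71.9 (−1.52). The next were Vmn1r219 (−0.68), Olfr821 (−0.66) and Olfr470 (−0.53), all within 2-fold. Olfr97 and Vmn1r151 stayed past 2-fold in 7 of 7 other treatments (−3.28 to −2.12 and −2.42 to −1.12), and the remaining members of the 5 in 5 of 7. Olfr97 and Olfr93 lie in the same cluster of chromosome 17, from Olfr90 to Olfr136, where Olfr123 was higher, so neighbours differed in direction.

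Probes called on 1 array only allow a lower bound of the fold. The bound sets a signal against the higher of the same probe's signal on the other array and the dimmest signal called there. It reached 2-fold for 22 of the 80 receptor probes called on DAC only, against 39.7% of all such probes, and for 22 of the 43 called on PBS only, against 53.9%. On the DAC side the largest bounds were those of Olfr1123 (186 against 4.40, at least 6.98-fold higher), Olfr1090 (152 against 4.58, at least 5.69-fold), Olfr20 (146 against 4.35, at least 5.49-fold), Olfr49 (132 against 8.55, at least 4.96-fold) and Olfr1496 (132 against 4.39, at least 4.95-fold). A second probe of Olfr1496, at an overlapping position, was called on neither array (4.67 and 4.17). The largest in the opposite direction were Olfr533 (5.05 on DAC against 150.1 on PBS, at least 8.79-fold lower on DAC), Olfr64 (6.40 against 131, at least 7.68-fold), Olfr822 (6.71 against 118, at least 6.92-fold), Olfr510 (24.2 against 118, at least 6.43-fold) and Olfr916 (5.91 against 79.7, at least 4.67-fold). Each of these named probes was printed once, so a bound takes a single spot as read. The brightest of the 308 negative control spots read 221 on DAC, above every DAC-only signal named here. On PBS it read 104, above the signal of Olfr916 only.

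Of 16 receptors with a studied function, each with 1 probe, 2 were called on both arrays and 14 on neither, against 6.05% and 85.7% of all receptor probes. Olfr544 is given above. Olfr2, the octanal receptor long known as I7, read 25.6 on DAC and 27.2 on PBS, just above the dimmest signals called, with a difference of −0.49. Olfr78, the receptor of the carotid body, read 5.37 and 4.89, and Olfr558, its close relative in blood vessels, 8.60 and 4.05. The sperm receptor gene Olfr16 read 18.8 and 19.1, and Olfr15 read 5.27 and 4.61. Olfr73, the eugenol receptor, read 15.9 and 14.2. Olfr17, widely used as P2 in studies of axon targeting, read 8.27 and 14.4, Olfr151, known as M71, 7.84 and 9.93, and Olfr160, known as M72, 5.72 and 5.25. Olfr1393, a receptor of the kidney tubule, read 23.5 and 8.70, Olfr90 6.34 and 12.6, and Olfr1507, known as MOR28, 5.17 and 16.2. Of the vomeronasal receptors, Vmn2r1 read 5.22 and 4.70, Vmn2r26 7.57 and 7.89, and Vmn2r116, the receptor for the male pheromone peptide of tear fluid, 5.41 and 4.85. No difference is given for the 14 probes that were not well above background.

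On chromosome 7 the beta-globin genes, which are transcribed in red cell precursors, lie inside a receptor cluster. Of 92 receptor probes within 1000000 bases of a beta-globin probe, 5 were called on DAC (5.43%, interval 1.79 to 12.2) and 3 on PBS (3.26%, 0.678 to 9.23), 1 of them on both. The intervals on both arrays include the share of all receptor probes. Hbb-b1, an adult globin gene, read 856 and 1005 in the same place, and Hbb-bh1, an embryonic one, 27.1 and 28.5. A probe of Hbb-y was called on neither array (5.23 and 4.71), and another on PBS only (12.4 and 23.6). Among the receptor neighbours of the globin genes, Olfr661 was called on both arrays (34.7 and 22.8). Called on DAC only were Olfr569 (77.3 against 15.9, at least 2.90-fold higher), Olfr607 (70.3 against 15.0, at least 2.63-fold), Olfr649 (32.2 against 7.61) and Olfr638 (32.7 against 23.4), and on PBS only Olfr64, given above, and Olfr609 (26.4 on DAC against 26.2 on PBS). A second probe of Olfr569, at an overlapping position, was called on neither array (18.4 and 4.60).

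Distance to the nearest probe of another gene went with small differences in the share. Receptor probes with such a neighbour within 10000 bases were called in 13.4% of 67 cases on DAC and 13.4% on PBS. From 10000 to 50000 bases the shares were 14.5% and 10.5% of 447, from 50000 to 200000 bases 10.5% and 8.47% of 685, and beyond that 7.55% and 6.12% of 278. Whether the neighbour itself was called went with no steady difference. On DAC, from the nearest to the farthest class, 10.3%, 17.3%, 11.4% and 7.53% of receptor probes beside a called neighbour were called, against 15.8%, 12.6%, 10.0% and 7.57% of the rest. On PBS the shares were 11.1%, 11.9%, 7.25% and 9.68%, against 15%, 9.63%, 9.0% and 5.09%. The intervals overlapped in every class on both arrays. Olfr1410 lay 28626 bases from a probe of Myeov2 that was called on both arrays, and Olfr549 3037 bases from one of Trim21. The nearest probes to Olfr187, Olfr780 and Olfr97 were called on neither.

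The genes that carry the receptor signal were read as well, each by its brightest probe. In this and the following gene lists, a gene with several probes thus had more chances of a call. The shares of all probes set beside them count every probe singly, so they are not a like measure. Gnal, for example, had 1 of its 2 probes called on each array. Of 16 olfactory transduction genes, 9 were called on both arrays, against 45.6% of all probes, 1 of them at least 2-fold higher on DAC and 0 lower, against 11.5% and 7.13% of all probes called on both, with a median difference of 0.21. The higher one was Ric8b, which helps to assemble the olfactory G protein (307 against 53.5, 2.12). Gnal, the olfactory G protein subunit, read 97.5 and 64.1 (0.21), Adcy3, the adenylyl cyclase of the pathway, 51.4 and 58.4 (−0.58), and Omp, the marker of mature olfactory neurons, 94.8 and 47.2 (0.61). The channel subunit genes Cnga2 (11.3 and 10.2) and Cnga4 (4.60 and 4.15), the chloride channel gene Ano2 (4.81 and 5.15) and Stoml3 (6.89 and 5.72) were well above background on neither array. Gng13, a G protein gamma subunit gene, was called on DAC only, by at least 1.45-fold. Of the receptor transport genes, which bring receptors to the cell surface, Rtp2 was called on both arrays (66.0 and 30.9, 0.70) while Rtp1 and Reep1 were called on neither.

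In the vomeronasal list 4 of 6 genes were called on both arrays, against 45.6% of all probes, with a median of 0.36. All 4 lay within 2-fold, as did 20680 of the 25404 probes called on both. Among the 4 were B2m (21422 and 11262, 0.53) and Gnai2 (1882 and 1221, 0.23). Trpc2, the ion channel of the organ, read 426 and 230.1 (0.49), although 2 of its 3 probes were called on DAC and 1 on PBS, and the G protein gamma gene Gng8 read 2463 and 1780 (0.07). Gnao1, the G protein subunit of Vmn2r neurons, was called on neither, with 20.9 and 14.3, and so was Fpr3, with 10.2 and 5.19. Among 21 genes of receptor choice and silencing, 17 were called on both arrays, against 45.6% of all probes. Of the 17, 0 were at least 2-fold higher and 2 lower, against 11.5% and 7.13% of all probes called on both, with a median of −0.13. The lower ones were Lhx2 (43.8 against 80.8, −1.28) and Ebf1 (95.2 against 153, −1.08), transcription factors that also act at receptor enhancers, and Ebf3 was called on PBS only, at least 2.04-fold lower on DAC. Kdm1a, the histone demethylase needed for receptor activation, read 613 and 512 (−0.13). Genes of receptor heterochromatin were called on both arrays and within 2-fold, among them Cbx5 (−0.49), Setdb1 (0.14), Trim28 (0.27) and Lbr (−0.10), a nuclear envelope protein that binds heterochromatin.

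Of the 8 markers of the sorted cells 7 were called on both arrays, against 45.6% of all probes. Kit (5080 and 3550) and Ly6a (1295 and 939) were among them, and Slamf1 was not. Of these 7, 1 was at least 2-fold higher on DAC and 0 were lower, against 11.5% and 7.13% of all probes called on both. The higher one was Procr, a marker of stem cells (462 against 112, 1.65). Of 8 olfactory neuron markers 4 were called on both arrays, 1 on DAC only and 3 on neither, against 45.6%, 11.1% and 40.4% of all probes. Ncam1 was lower on DAC (67.3 against 112, −1.13), with 2 of its 3 probes called on DAC and 1 on PBS. Erythroid markers were called on both arrays for 3 of 4 genes, and granulocyte and monocyte markers for 4 of 4, against 45.6% of all probes. The B cell marker Cd79a was called on both (0.76), as was the T cell marker Cd3e, while Cd3d was called on PBS only, at least 4.51-fold lower on DAC. The part of such cells in the receptor readings was not tested.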

How the data were processed

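Total RNA was labelled with Cy3 after amplification with a low-input kit, per the labels' protocols, and hybridised to 1-colour Agilent arrays, both on 1 slide. Per the file headers, the authors' scanner output came from Agilent Feature Extraction 10.7.3.1 (protocol GE1_107_Sep09), and probe positions are on mm9. The deposited intensity of a spot is background-subtracted and detrended, with a surrogate value near the background for spots not above it, and not normalized between arrays. The deposited spot calls (well above background; positive and significant) are the scanner software's. The deposited series matrix holds log2 values with a median of 0 in each column. Its differences between arrays correlated with r = 1 with those computed here, so scale and direction are settled, and the baseline taken from each probe is unknown.

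Spots with outlier flags were left out, which removed 1 of 55681 probes and no receptor. A probe was called if at least 50% of its spots were. Signals were put on the log2 scale, averaged over spots and scaled by the 75th percentile over the 25404 probes called on both arrays. Having 1 array a group, the comparison allowed no test or p-value. Folds of 2 were counted, and shares have exact Clopper-Pearson 95% intervals. Precision is limited by having 2 arrays in all. Receptors named are the 12 brightest, the 8 highest and 8 lowest differences, the 5 largest bounds on each side, 16 studied receptors and the called neighbours of the beta-globin genes. The rest were named after their values were seen. The members and lists were chosen with earlier results of these data known. Alternatives covered calls, background (normexp, offset 50), scaling, filters and members. The code that counts 2-fold differences and computes intervals was checked on simulated arrays. Python 3.11.15, numpy 2.4.6, pandas 2.3.3, scipy 1.17.1, R 4.3.3 and limma 3.58.1 were used. One marker gene is not reported here.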

Additional observations from a re-analysis of the deposited data

How the results depend on the processing

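Of 84 recomputed values 57 stayed within the range set for them (the binomial interval of a share, 1.5 times a count, the repeat-spot SD of a median), 20 moved beyond it and the sign of the median difference turned in 7. The positive and significant call gave shares of 44.9% on DAC and 41.5% on PBS. Of the 1488 receptor probes 476 were then called on both arrays, 192 on DAC only and 142 on PBS only. Of the 54192 other probes these counts were 37197, 6055 and 2388. Both receptor shares on 1 array only thus lay above those of the others. With the stronger call the DAC-only share was below and the PBS-only share about equal. Counting 1 probe a gene, leaving out pseudogene names, or leaving out chromosome 7 kept the shares and the counts of called probes within range. So did 2 alternatives chosen after seeing the data, leaving out probes with the 7-base motif and leaving out probes with a shared run. At 2-fold, 1 receptor probe was higher and 2 were lower with normexp correction and with no background subtraction, where the median was −0.11 in both cases. Quantile normalization gave 2 higher, against 8.29% of the other probes, and a median of −0.25. The median was −0.021 with scaling over all probes and −0.020 with the series matrix values. Filtering on the positive and significant call gave 46 higher and 62 lower of 476, against 17.1% and 8.86% of the other probes, and a median of −0.044. No filter gave 109 and 133 of 1488, against 18.1% and 8.51%, and a median of −0.24. These values rest on probes near background. Among the 8 receptor probes at or above the median signal of called probes 0 were higher and 0 lower, against 6.31% and 5.14% of the other probes. Without chromosome 7, 3 were higher and 3 lower among 70 receptor probes called on both arrays. Without probes with a shared run, 6 were higher and 3 lower among 79. The percentile of the receptor median on DAC became 17.5 with normexp correction. The causes of the values that moved were not tested. No paired analysis was possible because each group had 1 array. Signal over background limits the receptor readings, most of which were not well above background.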
